A study of Mus musculus with 4 samples.

Results

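The genes of brown fat thermogenesis were followed on 4 mouse microarrays, each hybridized with RNA from the spinal cord or the duodenum of a WT or an IP6K2-KO mouse. The set held 10 genes (*Ucp1*, *Ppargc1a*, *Dio2*, *Cidea*, *Plin1*, *Elovl3*, *Cox7a1*, *Cox8b*, *Adipoq* and *Gys2*) of the 32575 genes and unnamed identifiers represented on the arrays. These 10 were chosen by name with their earlier measured values on the spinal cord arrays in view, so the spinal cord values are given as a description. The mice were males of 20 weeks kept on the CE-2 diet. All of them were moved to iVid-neo, a purified diet, for 1 week and had no food for the last 48 h, so diet and fast were common to both genotypes. The WT mice were littermates of the mutants, in which the exon for the IP6K2 kinase domain is deleted (IP6K2-/-), and per the study's methods mice were perfused with saline before dissection. Each genotype and tissue was represented by 1 array. No spread between mice could therefore be estimated, no test was made, and each difference lacks a replicate check.

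Brown fat cells burn fatty acids to make heat. Cold or noradrenaline acts through β-adrenergic receptors and cAMP to induce PGC-1α and the deiodinase that activates thyroid hormone, and these raise transcription of *Ucp1*, whose product lets protons leak across the inner mitochondrial membrane. In adult mice the tissue lies between the shoulder blades, around the large vessels and beside the spine, and it is the main site of *Ucp1* expression. Several of the genes also have other sources, since *Cox7a1* and *Cox8b* encode cytochrome c oxidase subunits of heart and skeletal muscle, *Plin1* and *Adipoq* are made by white and brown fat cells alike, and *Gys2* encodes the liver form of glycogen synthase.

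The stretch of 250 bases before the transcription start is shown for 4 of the genes, 2 that were lower on the KO-labelled spinal cord array (*Ucp1* and *Adipoq*) and 2 that differed there by less than 2-fold (*Dio2* and *Cox8b*). The sequences are from RefSeq on the mouse build GRCm38.p6, which held 7 of the 10 genes, and are written 5′ to 3′ on the strand of the gene. They lie at chr8:83290098-83290347 on the plus strand for *Ucp1*, chr16:23146286-23146535 on the plus strand for *Adipoq*, chr12:90739039-90739288 on the minus strand for *Dio2* and chr7:140900447-140900696 on the minus strand for *Cox8b*. Capitals mark the matches to 4 motifs searched on both strands, namely TATAAA (the TATA box), AGGTCA (the half-site of many nuclear receptors), TGACGTCA (the full cAMP response element) and CCAAT (the CCAAT box, ATTGG on the other strand).
Ucp1: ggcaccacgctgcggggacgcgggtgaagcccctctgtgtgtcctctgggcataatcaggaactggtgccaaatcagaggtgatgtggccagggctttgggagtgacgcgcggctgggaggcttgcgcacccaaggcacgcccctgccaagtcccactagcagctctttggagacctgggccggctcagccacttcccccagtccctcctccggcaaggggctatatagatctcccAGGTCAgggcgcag
Adipoq: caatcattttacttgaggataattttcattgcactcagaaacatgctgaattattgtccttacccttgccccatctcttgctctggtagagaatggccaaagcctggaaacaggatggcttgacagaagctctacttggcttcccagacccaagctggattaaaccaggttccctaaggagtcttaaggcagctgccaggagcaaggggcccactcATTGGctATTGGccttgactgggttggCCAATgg
Dio2: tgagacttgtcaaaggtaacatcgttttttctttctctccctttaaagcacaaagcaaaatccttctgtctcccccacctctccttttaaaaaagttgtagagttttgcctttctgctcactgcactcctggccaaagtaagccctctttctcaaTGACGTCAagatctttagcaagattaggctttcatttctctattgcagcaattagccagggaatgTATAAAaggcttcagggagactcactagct
Cox8b: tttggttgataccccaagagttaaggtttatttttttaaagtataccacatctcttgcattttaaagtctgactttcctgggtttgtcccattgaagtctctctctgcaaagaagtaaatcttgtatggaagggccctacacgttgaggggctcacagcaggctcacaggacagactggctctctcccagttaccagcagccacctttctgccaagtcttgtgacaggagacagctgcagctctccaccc
The only AGGTCA among the 7 promoters began 14 bases before the start of *Ucp1*. *Dio2* held the TGACGTCA, 95 bases before its start, and a TATAAA 30 bases before it. *Adipoq* held 3 CCAAT matches within 34 bases of its start, and *Cox8b* held none of the 4 motifs. No 2 of the matches overlapped. The same 250-base windows of 32851 promoters held AGGTCA in 14.0%, TGACGTCA in 1.55%, TATAAA in 12.4% and CCAAT in 33.8%. These matches are letters in a window and were not tested as sites.

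The processed signal of a spot is its brightness after background subtraction and detrending by the scanner software. To set arrays side by side, log2 of the signal was taken and the 75th percentile of the array was subtracted, and every log2 value below is on this scale unless another is named. The 75th percentile was 905 and 971 in the WT and KO-labelled spinal cord, but 68.0 and 323 in the WT and KO-labelled duodenum, where 51.6% and 66.3% of 39429 probes were well above background. The *Ip6k2* probe was higher by 1.45 on the spinal cord array labelled IP6K2-/- (signal 452 in WT and 1320 in the other array), and in the duodenum it differed by -0.21 (139 and 572). The files do not place this probe relative to the deleted exon, so it does not check the label, and the genotype of an array is given throughout as labelled. All 11 spinal cord markers named on the array were well above background on both spinal cord arrays, and all 12 duodenum markers on both duodenum arrays. A technical SD was estimated for each difference from 399 probes that are spotted 10 times on every array. It measures scatter among spots of 1 array, and says nothing of the scatter among mice.

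In the spinal cord, *Ucp1* and several genes of fat cells gave lower values on the KO-labelled array, whereas the cytochrome c oxidase subunits shared with muscle gave higher ones. Of the 10 genes, 5 were at least 2-fold lower (*Ucp1*, *Gys2*, *Elovl3*, *Cidea* and *Adipoq*) and 0 were at least 2-fold higher. Among all 25216 genes well above background on at least 1 of the 2 arrays, 0.865% were at least 2-fold lower and 2.28% at least 2-fold higher. The 10 genes were picked with this contrast in view, so these shares stand side by side as a description. Their median difference was -0.998, with the 2 ends of the set at -5.02 and 0.61, and the median gene on the arrays differed by -0.04.

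*Ucp1*, the proton carrier that defines thermogenic fat, gave a signal of 404 in the WT spinal cord and 13.4 on the KO-labelled array, and it was not well above background in either duodenum. The difference was -5.02 (technical SD 0.16), a 32.4-fold lower level, and it ranked first among the 14622 genes that were lower in the spinal cord. The next was *Cyp2b10*, a cytochrome P450 of drug metabolism named here after its values were seen, at -4.41 (219 and 11.0). The scanner software marked the local background of the WT *Ucp1* spot as an outlier, where it read 27, the highest of the 48 member spots (20 to 27), but the spot itself was not marked. *Ucp1* differed by -3.16 under normexp background correction with an offset of 50, and by -2.84 when marked local backgrounds were first replaced by the median of the array. Its paralogs *Ucp2* and *Ucp3* were well above background on every array and differed by 0.18 and 0.07.

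Both regulators of thermogenesis in the set differed by less than 2-fold between the spinal cord arrays. *Ppargc1a*, which encodes the coactivator PGC-1α, gave 2262 in WT and 2245 in the KO-labelled spinal cord, a difference of -0.11 (technical SD 0.06). Its second, dimmer probe gave 250 and 221, a difference of -0.28. *Dio2*, the type 2 deiodinase that makes active thyroid hormone and is also an astrocyte enzyme, gave 2008 and 1732, a difference of -0.32 (technical SD 0.06).

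*Cidea*, *Plin1* and *Elovl3*, which act in lipid storage and synthesis, gave lower values. *Cidea*, a lipid droplet protein abundant in brown fat, gave 2592 in WT and 1285 on the KO-labelled array, a difference of -1.11 (technical SD 0.06). *Plin1*, the perilipin that coats the droplets of fat cells, was dim, with 27.6 and 15.0, and its difference of -0.98 (technical SD 0.16) was just short of 2-fold. *Elovl3*, the fatty acid elongase induced in brown fat by cold, gave 17.0 in WT and was not well above background on the KO-labelled array (0.99). It was therefore at least 4.25-fold lower, a bound set by the dimmest signal well above background on that array.

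*Adipoq*, the gene of the hormone adiponectin, gave 182 in WT and 96.8 on the KO-labelled array, a difference of -1.01 (technical SD 0.09) that just passed 2-fold. *Gys2* gave 88.9 and 22.3, a difference of -2.10 (technical SD 0.12). The second *Gys2* probe, at 9.71 in WT, was not well above background on the KO-labelled array, and its signal there was also lower (3.67). The muscle form of the enzyme, *Gys1*, differed by 0.23.

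The cytochrome c oxidase subunits gave higher values on the KO-labelled array. *Cox7a1* gave 1630 in WT and 2324 on the KO-labelled array, a difference of 0.41 (technical SD 0.06). *Cox8b* gave 1012 and 1656, a difference of 0.61 (technical SD 0.06). Their widely expressed paralogs *Cox7a2* and *Cox8a* differed by 0.00 and 0.06, so in each pair the muscle-type form had the larger difference, below 2-fold.

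**Figure D1:**
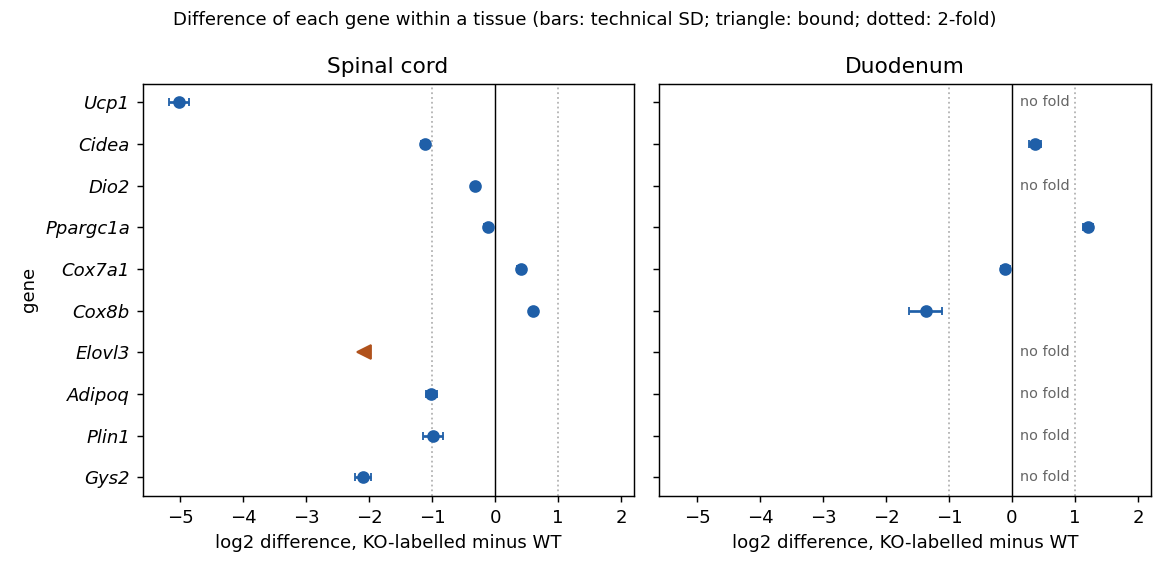
Difference of each of the 10 genes between the KO-labelled and the WT array in the spinal cord (left) and the duodenum (right), on the log2 scale, with 1 array per group. Bars are the technical SD of spots, the triangle is a bound and dotted lines mark 2-fold. *Ucp1* stands at -5.02 in the spinal cord, and 6 genes have no fold in the duodenum because they were dim there.

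The count of 5 genes lower by 2-fold changed under normexp, which was run with an offset of 50. That offset exceeds the WT spinal cord signals of *Elovl3* (17.0) and *Plin1* (27.6), though not that of *Adipoq* (182). The count was 3 (*Ucp1*, *Cidea* and *Gys2*) under normexp with marked local backgrounds replaced. There *Elovl3*, *Adipoq* and *Plin1* came to -0.49, -0.67 and -0.27. Under normexp without that replacement the count was again 5, but *Cidea*, at -0.84, was no longer among them and *Plin1*, at -2.20, was. There the bound for *Elovl3* was -2.58 and the median gene differed by -0.45, against -0.05 with the replacement. Both runs had the same offset, so the shifts between them came with the background step. The highest local background was 15708 for WT spinal cord, compared with 47 for its KO-labelled counterpart. No other offset was run, so the part of the offset was not tested. In bulk RNA, fewer cells of a type and less RNA per cell cannot be told apart.

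**Figure D2:**
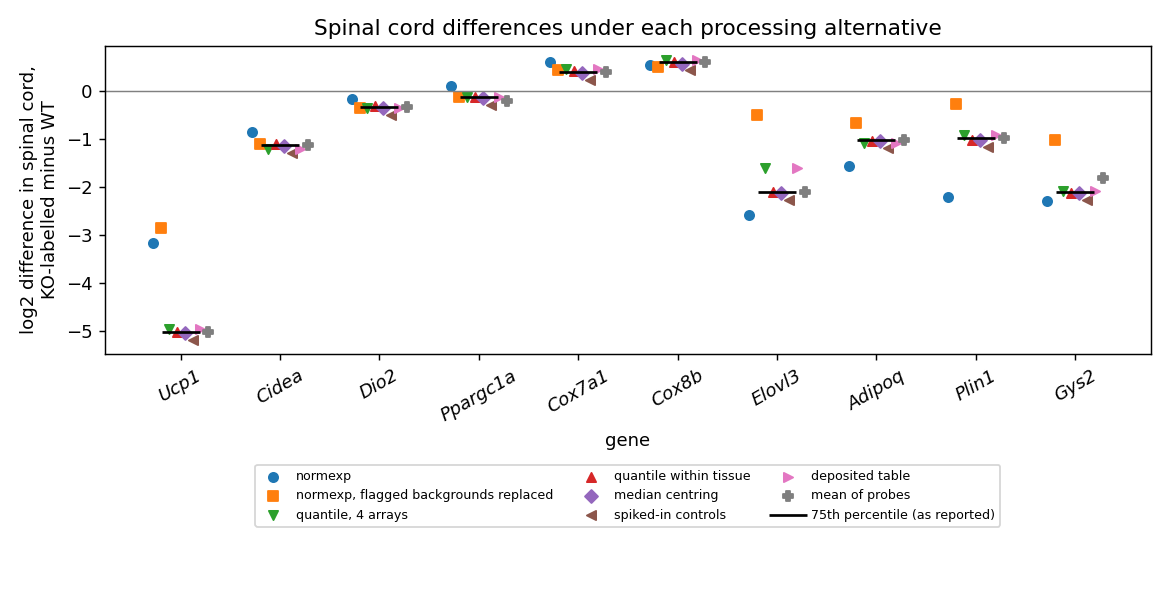
Difference of each gene in the spinal cord (KO-labelled minus WT, log2 scale) as reported (black line) and under 8 other ways of processing the same arrays (symbols). *Elovl3* values are bounds. *Ucp1* ranged from -5.19 to -2.84 and *Ppargc1a* crossed 0, from -0.28 to 0.12.

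Other genes of the pathway were read from lists, given by their counts and medians. Of 20 genes of brown fat identity and transcription, 19 were measured, 0 reached 2-fold in either direction in the spinal cord and the median difference was -0.03. The largest value was that of *Pparg*, the master regulator of fat cells, at -0.59 (236 and 169). *Prdm16* and *Ebf2*, 2 determinants of the brown fat lineage, stood at 0.41 and -0.37. The brightest gene of the list on the KO-labelled array, *Esrra*, a nuclear receptor of mitochondrial genes, differed by 0.21. *Lhx8* was not well above background on any of the 4 arrays. The cells that gave these transcripts in bulk spinal cord were not tested, so the list does not measure brown fat alone.

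Among 16 genes of thermogenic signalling, 15 were measured in the spinal cord, 2 were at least 2-fold higher and 1 was at least 2-fold lower. The β-adrenergic receptor of fat, *Adrb3*, gave 110 on each array, a difference of -0.11. *Klb*, the co-receptor for FGF21, differed by -1.07 (14.5 and 7.44). The proton channel *Otop1* differed by 1.02 (8.97 and 19.5). Both genes were dim, with technical SDs of 0.23 and 0.24. *Gnas*, the stimulatory G protein and the brightest gene of the list, differed by -0.10, and *Fgf21* was not well above background.

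Among 19 genes of the lipid droplet and lipolysis, 1 was at least 2-fold lower and 0 were at least 2-fold higher, with a median of -0.07. The gene was *Fabp4*, the fatty acid carrier of fat cells, at -1.13 (1893 and 925). *Cidec*, the white fat relative of *Cidea*, stood at -0.99 (288 and 156) and the lipase genes *Pnpla2* and *Lipe* at -0.43 and -0.14. The brightest of the list, *Gpd1*, differed by -0.08. Of 20 genes of fatty acid oxidation, 0 reached 2-fold and 14 were positive, with a median of 0.06. The highest were *Pdk4*, the kinase that turns mitochondria from glucose to fat, at 0.88 (1962 and 3866), and *Cpt1b*, the muscle form of the carnitine shuttle, at 0.66 (120 and 203). *Hadhb*, the brightest in WT, differed by 0.06. None of 24 paralogs of the 10 genes reached 2-fold in the spinal cord.

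Fat cell markers lay on both sides of 0. Of 16, 15 were well above background on both spinal cord arrays, 2 were at least 2-fold lower, 1 was at least 2-fold higher and the median was -0.14. Their summed level, in multiples of the 75th percentile, was 37.5 in WT and 33.6 on the KO-labelled array. Most of it came from *Plin4* (14343 and 11390) and *Sncg* (10686 and 13246), so the sum does not measure the amount of fat. *Pck1*, which makes the glycerol of stored fat and is also a liver and kidney gene, differed by -1.80 (185 and 57.0). *Retn*, a fat hormone in mice, differed by 1.37 (15.5 and 42.9). *Plin4*, the brightest of the list in WT, differed by -0.43 and *Sncg* by 0.21. *Lep*, the gene of leptin, was not well above background on any of the 4 arrays. The list shares 7 genes with the pathway and paralog lists.

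Markers of skeletal muscle, Schwann cells, red blood cells, and neutrophils and bone marrow were higher on the KO-labelled array. All 20 skeletal muscle genes were positive and 16 were at least 2-fold higher, with a median of 3.75. *Ckm* (51.5 and 1320) and *Acta1* (256 and 6142) led them at 4.58 and 4.48. Their summed level was 41.1 in WT against 142 on the KO-labelled array. Most of the WT sum came from *Pvalb* (21848 and 27588), which differed by 0.23. Of 10 Schwann cell genes, 7 were at least 2-fold higher, with a summed level of 12.3 against 42.0, and *Prx*, a protein of the myelin sheath of peripheral nerve, stood at 5.23 (188 and 7564). Of 8 red blood cell genes 6 were at least 2-fold higher, and of 8 neutrophil and bone marrow genes 5, with medians of 1.23 and 1.08. The liver genes *Alb*, *Ahsg*, *Fgb* and *Fga* were not well above background on either spinal cord array, and the list of 10 hepatocyte genes had a summed level of 1.49 in WT and 1.41 on the KO-labelled array. Among the 6 that were, *Cyp2e1* differed by 1.49 and *Serpina1a* by -1.46. The 11 spinal cord markers had a median of -0.04 and a summed level of 396 and 391. *Cox7a1* and *Cox8b* were higher on the array where the muscle genes were higher, and the part of these markers in the values of the 10 genes was not tested.

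**Figure D3:**
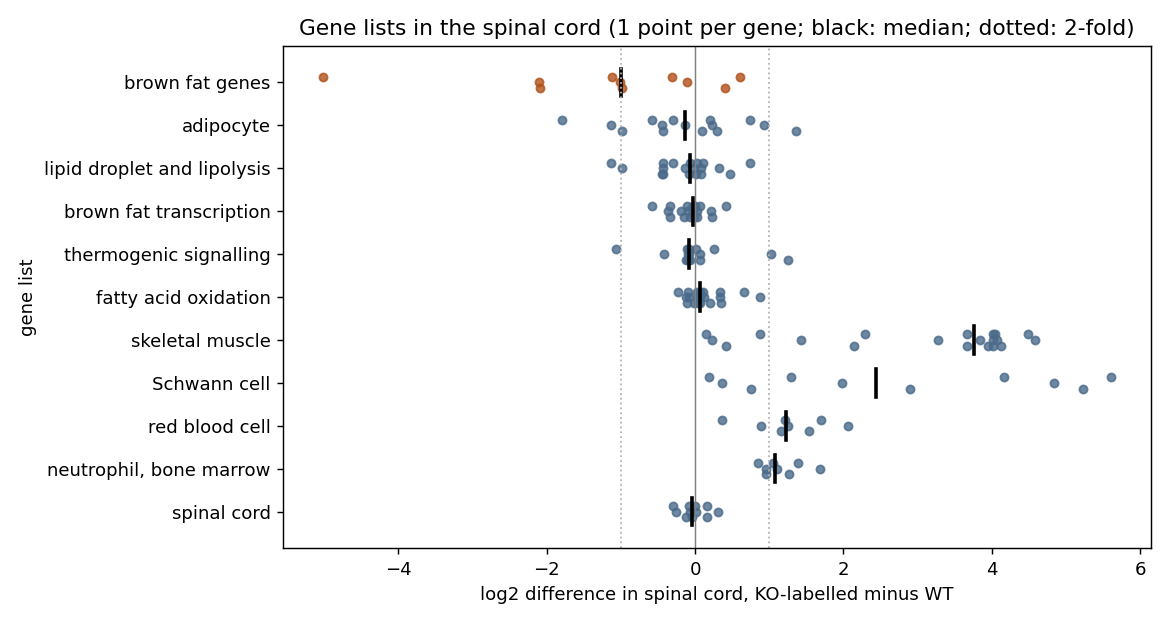
Difference between the KO-labelled and the WT spinal cord array (log2 scale) for the 10 brown fat genes and for 10 of the 13 lists, 1 point per gene, with the list's median as a black bar and dotted lines at 2-fold. Genes and lists were chosen with earlier results known. *Ucp1* reaches furthest to the left, and the skeletal muscle and Schwann cell lists lie to the right with medians of 3.75 and 2.44.

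In the duodenum, most of the brown fat genes were near or below the detection limit. On the WT array 4 of the 10 were well above background (*Cidea*, *Ppargc1a*, *Cox7a1* and *Cox8b*), and on the KO-labelled array 6, with *Dio2* and *Adipoq* added, against 10 and 9 on the spinal cord arrays. Of all probes, 51.6% and 66.3% were well above background on the WT and KO-labelled duodenum arrays. The shares were 76.7% and 77.4% on the WT and KO-labelled spinal cord arrays, so the duodenum arrays were dimmer as a whole. *Ucp1* gave 1.05 and 1.01, and *Elovl3*, *Plin1* and *Gys2* were likewise not well above background on either duodenum array, so no fold is given for these 4 genes. *Dio2* gave 1.04 and 7.80 and *Adipoq* 2.76 and 11.6, where the first value of each pair was not well above background and the bound on the fold was under 1.

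Of the 4 genes with a difference in the duodenum, 1 was at least 2-fold higher and 1 at least 2-fold lower on the KO-labelled array. Over all 21429 genes, 7.2% were at least 2-fold higher and 11.9% at least 2-fold lower, so a 2-fold difference between these arrays was common. *Ppargc1a* gave 94.2 and 1031, a difference of 1.21 (technical SD 0.09), but its second probe gave 22.0 and 98.8, a difference of -0.08, so its probes disagreed. *Cox8b* was dim, with 7.74 and 14.2, and differed by -1.37 (technical SD 0.26). *Cidea* gave 55.3 and 339, a difference of 0.37 (technical SD 0.09). *Cox7a1* gave 3338 and 14721, a difference of -0.11 (technical SD 0.07).

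The 75th percentile was 68.0 and 323 on the WT and KO-labelled duodenum arrays, and the direction of a gene rested on the scaling. Scaled on 8 spiked-in control probes, the median gene was higher by 2.89 on the KO-labelled array, and *Cox7a1* and *Cox8b* turned to 2.90 and 1.63. Relative to the median gene, *Cox8b* stayed between -1.34 and -1.22 under the 8 alternatives, *Cidea* between 0.32 and 0.52, and *Ppargc1a* between 0.71 and 1.47, the lowest when its probes were averaged. *Cox7a1* lay between 0.01 and 0.72.

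Among the pathway lists in the duodenum, 17 genes of brown fat identity and transcription had a value, 2 were at least 2-fold lower and the median was -0.32. The 2 were *Rxrg* at -1.25 (169 and 338) and *Cebpb* at -1.15 (1094 and 2348). Of the fatty acid oxidation genes 16 of 20 were positive, with 3 at least 2-fold higher, 1 lower and a median of 0.42. *Etfdh*, which passes electrons from fat oxidation to the respiratory chain, differed by 1.30 (182 and 2116). Of the 19 lipid droplet and lipolysis genes, 1 was at least 2-fold higher and 0 were at least 2-fold lower, with a median of -0.37. The gene was *Lpl*, the lipase that frees fatty acids from lipoproteins, at 1.60 (33.9 and 487). The red blood cell genes were lower, 6 of 6 by at least 2-fold with a median of -3.39, and the adipocyte list had a median of -0.08. These values move with the scaling as above, and the part of the blood genes in the values of the 10 genes was not tested.

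Between tissues the 10 genes did not share a pattern. On the WT arrays, 5 were at least 2-fold higher in the spinal cord (23.1% of 25218 genes) and 1 was at least 2-fold higher in the duodenum (30.2%). On the KO-labelled arrays, 3 were at least 2-fold higher in the spinal cord (25.4% of 25720 genes) and 1 in the duodenum (30.3%). *Dio2* was higher in the spinal cord by at least 35.1-fold in WT and by 6.21 (73.8-fold, technical SD 0.20) on the KO-labelled arrays. *Cox8b* was higher there by 3.30 in WT and by 5.28 on the KO-labelled arrays. Normexp lowered these values, to a bound of 1.99 in WT and a difference of 3.32 on the KO-labelled arrays for *Dio2*, and to 1.09 and 3.12 for *Cox8b*. *Cox7a1* was lower in the spinal cord by -4.77 in WT and -4.25 on the KO-labelled arrays, so these 2 oxidase subunits, both of the muscle type, lay on opposite sides.

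*Ucp1* was higher in the WT spinal cord than in the WT duodenum by at least 7.07-fold, but on the KO-labelled arrays the bound was 1.03-fold. Under normexp the WT bound was 0.38 on the log2 scale, and 0.06 with marked backgrounds replaced, both short of 2-fold. *Adipoq* was at least 3.19-fold higher in the WT spinal cord and 2.78-fold higher in the KO-labelled spinal cord. Its direction turned under both normexp settings, to -0.25 on the KO-labelled arrays (the median gene differed by -0.56), and no WT bound was left. *Cidea* was higher in the spinal cord by 1.81 in WT and by 0.33 on the KO-labelled arrays. *Ppargc1a* was higher in the spinal cord by 0.85 in WT and lower by -0.47 on the KO-labelled arrays. Its second probe differed by -0.23 in WT and -0.43 on the KO-labelled arrays, so the WT direction rested on the probe. The KO-labelled value turned to 1.40 under spiked-in scaling and 2.16 under quantile normalization within tissue. Relative to the median gene these were -0.17 and -0.16. The median gene differed by -0.63 in WT and -0.30 on the KO-labelled arrays, lower in the spinal cord. Scaling on the spiked-in probes moved it to 4.41 in WT and turned the WT difference of *Cox7a1* to 0.27. Relative to the median gene, *Cox7a1* was lower in the WT spinal cord under each of the 8 alternatives, by values from -4.15 to -3.20.

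**Figure D4:**
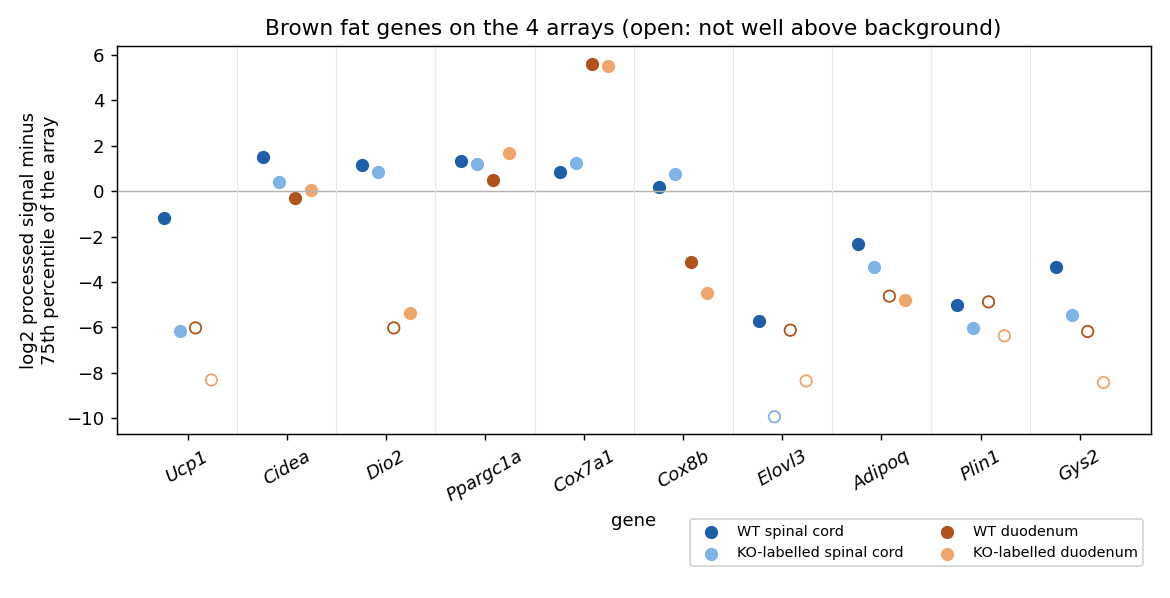
Normalized level of each brown fat gene on the 4 arrays (log2 of the processed signal minus the 75th percentile of the array), with 1 point per array and open circles where the probe was not well above background. Levels are to be read within a gene. *Ucp1* is at -1.16 in WT spinal cord and -6.18 on the KO-labelled array, whereas *Cox7a1* is highest in the duodenum, at 5.62 and 5.51.

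Within a gene and on the 75th-percentile scale, the WT spinal cord held the highest normalized level for *Ucp1*, *Dio2*, *Cidea*, *Adipoq* and *Gys2*. *Cidea* ran from 1.52 in WT spinal cord through 0.40 and 0.07 on the KO-labelled spinal cord and duodenum to -0.30 in WT duodenum. With 1 array per group, the spread between neighbours in such an order is unknown. Likeness of pattern was measured by the Euclidean distance over the 4 centred levels, with levels not well above background raised to the floor of the array. For *Ucp1*, *Elovl3*, *Plin1* and *Gys2* both duodenum levels are such floor values, and for *Adipoq* and *Dio2* the WT one, so the order rests partly on them. *Adipoq* lay nearest to the mean profile of the 10 genes (0.78) and *Cox7a1* farthest (5.50). Of 17280 other genes, 83 lay nearer than *Adipoq*, led by *Tspan4* (0.33), *Mug2* (0.34), *Nox4* (0.39), *Tcp10b* (0.45) and *Kcnj4* (0.46). The next were *Trim72*, *Acr*, *Gnb3*, *4930432K21Rik* and *Rtbdn*, at 0.47 to 0.56, and with 4 arrays such likeness is a description of these values.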

How the data were processed

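Total RNA of spinal cord and duodenum was labelled with Cy3 and hybridized to 1-colour Agilent mouse arrays, 4 arrays on 1 slide. The authors deposited the scanner output of each array (Agilent Feature Extraction 11.5.1.1, per the submitters' processing notes), whose processed signal is a spot's intensity with background removed and spatial trends corrected. They also deposited a table of normalized log2 values, which matched a quantile normalization of the 4 arrays (median absolute difference 0.001, column medians 5.11 to 5.12).

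Here, control spots and outlier-marked spots were left out (89 to 133 of 43020 spots per array), and log2 of the processed signal minus the 75th percentile of the array was taken. A gene was given by its brightest probe on average, and a probe well above background on only 1 array gave a bound. A called difference was at least 2-fold. RefSeq accessions were named through GRCm38.p6 gene names (25868 of 26391), and the 10 genes had 12 probes. Technical SDs used the 50 replicated probes nearest in brightness. Normexp was run on median spot signals, the mean being missing from the scanner columns. No probe was saturated. Precision is limited by the number of arrays, 1 per group, which gives no replicate spread.

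The 10 genes and the 13 lists (181 genes) were chosen with earlier results of these data known. Named genes are the 10, at most 4 per list past 2-fold or else its brightest, dim defining markers and the 10 nearest in pattern, and 2 genes of these lists are not reported here. Others named, such as *Cyp2b10*, *Pparg*, *Cidec* or *Pdk4*, were chosen after their values were seen. Alternatives were normexp with an offset of 50, with and without replacement of marked local backgrounds, quantile normalization over 4 arrays or within a tissue, median centring, spiked-in control scaling, the deposited table, the mean of probes, other filters on dim probes and 1.5-fold. Python 3.11.15 (numpy 2.4.6, pandas 2.3.3), R 4.3.3 and limma 3.58.1 were used. The calculation was run on simulated spinal cord values with large known changes in genes above background. That run checks the code, and says nothing of accuracy for dim genes or of the spread between mice.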

Additional observations from a re-analysis of the deposited data

Results flagged for a closer look

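Of the 4 genes measured in both tissues, each had differences of opposite sign in the spinal cord and the duodenum (KO-labelled minus WT), each larger than its technical SD. The spinal cord difference minus the duodenum difference was -1.48 for *Cidea*, -1.32 for *Ppargc1a*, 0.52 for *Cox7a1* and 1.98 for *Cox8b*. Whether the tissues differ was not tested, since each value rests on 4 arrays with 1 per group. The signs for *Cox7a1* and *Cox8b* in the duodenum turned with the scaling, and that of *Ppargc1a* in the spinal cord turned under normexp. The second *Ppargc1a* probe, well above background on all 4 arrays, differed by -0.28 in the spinal cord and -0.08 in the duodenum, the same sign in both.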

How the results depend on the processing

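No paired analysis was possible because there were no replicate arrays to pair. The median difference of the 10 genes in the spinal cord, -0.998, was -1.19 under normexp (where the median gene moved from -0.04 to -0.45), -0.41 under normexp with marked backgrounds replaced and -1.17 under spiked-in scaling. In the duodenum the median, 0.13, was 0.40 under both normexp settings, 0.29 under quantile normalization of 4 arrays, 0.33 within tissue or in the deposited table, and 2.54 under spiked-in scaling.

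Genes at least 2-fold lower on the KO-labelled array numbered 3 in place of 5 in the spinal cord under normexp with marked backgrounds replaced. There they numbered 6 under median centring, quantile normalization within tissue or spiked-in scaling, and 4 with both arrays above background. In the duodenum they numbered 0 in place of 1 under spiked-in scaling and 5 without the filter on dim probes. Genes at least 2-fold higher in the duodenum numbered 6 in place of 1 under spiked-in scaling, 2 in the deposited table and 0 with probes averaged, and at 1.5-fold 1 in place of 0 was higher in the spinal cord. Genes higher in WT spinal cord than WT duodenum numbered 3 in place of 5 under normexp, 2 with both arrays above background, 8 within tissue and 9 under spiked-in scaling, which left 0 in place of 1 higher in WT duodenum. On the KO-labelled arrays, those higher in spinal cord numbered 8 in place of 3 within tissue or under spiked-in scaling and 5 in the deposited table or without the filter, where 2 in place of 1 were higher in the duodenum. Normalization within a tissue does not put the tissues on a common scale, so its counts between tissues carry a shift of all genes. There the median gene was higher in spinal cord by 2.08 in WT and 2.31 on the KO-labelled arrays. Under spiked-in scaling it was higher by 4.41 and 1.57.

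Between genotypes within a tissue, single genes changed sign in 8 cases. *Ppargc1a* in the spinal cord was 0.12 under normexp, but -0.12 when marked local backgrounds were first replaced. *Cox7a1* in the duodenum was 0.54 under both normexp settings, 0.24 with 4-array quantiles and in the deposited table, 0.29 within tissue and 2.90 under spiked-in scaling, where *Cox8b* was 1.63. The change of *Ppargc1a* was thus absent at the same offset once marked local backgrounds were replaced. Spiked-in scaling shifts all genes of an array alike, and the cause of the remaining changes was not tested. Between tissues, *Adipoq* and *Ppargc1a* (KO-labelled) and *Cox7a1* (WT) turned as given in the report. In the spinal cord, the dim *Elovl3*, *Plin1* and *Gys2*, and *Ucp1*, moved by over 1 on the log2 scale under at least 1 normexp setting.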
